A study of Arabidopsis thaliana with 27 samples.

Results

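The roots of Epi 8 were compared directly with the roots of its sister line Epi 24, gene by gene, in Arabidopsis seedlings 10 days old. Epi 8 and Epi 24 are F3 families of 1 cross, in which pollen of a third-generation *msh1* T-DNA mutant (SAIL_877_F01) was put on flowers of Col-0 wild type (WT). F2 plants with the intact *MSH1* gene were selfed, so that both lines carry *MSH1* and the cytoplasm of WT. The rule took the root libraries of plants 1 to 3 of each line, 6 of the 27 libraries of the series, and the 3 root libraries of Col-0 WT were kept in the fit for the spread between plants and as the reference level. Floral stems of the same lines and of WT, 6 weeks old with 3 plants each, entered the comparison between organs only. All 9 seedlings grew on 0.5 MS medium and each gave 1 library, so that the spread is between plants of 1 F3 family per line, and differences between families of 1 line are not covered. The whole root was ground, and in such samples fewer cells of a type and less RNA per cell cannot be told apart.

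*MSH1* is a nuclear gene whose product acts on the DNA of mitochondria and plastids, and its loss alters the growth of the plant. In a young root, vessels of the xylem carry water behind a lignified and cellulose-rich secondary wall, while the endodermis seals the vascular cylinder with the lignin of the Casparian strip and later with suberin. Water and ions that enter the root pass these layers through aquaporins and transporters in the membranes, and receptor kinases at the cell surface read peptides from neighbouring cells and microbes.

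Of the 20787 genes with enough counts in root, 4 differed between Epi 8 and Epi 24 at a Benjamini-Hochberg FDR under 0.05 with a log2 fold change (log2FC) of 0.5 or more in either direction (edgeR quasi-likelihood test). They are 0.0192% of the genes tested, with 3 lower (0.0144%) and 1 higher (0.00481%) in Epi 8. Levels are given as CPM, the counts of a gene per 1e6 counts on all genes after TMM scaling between libraries, and log2FC is Epi 8 minus Epi 24 with its standard error (SE). *MSH1* itself was at 9.77, 9.12 and 9.98 CPM in Epi 8 plants 1 to 3, at 6.31, 9.94 and 6.29 CPM in Epi 24 and at 9.24, 6.35 and 11.1 CPM in WT. The lines overlapped and the log2FC of 0.36 (SE 0.26) was not called.

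Total counts per root library were 18524351 to 20041205. Plant 2 of Epi 24 stood apart on the first principal component of the 9 root libraries, which held 18.9% of the variance, and it had the highest share of reads outside genes (6.17%, against 3.93 to 5.02% in the other roots). It lay at -62.1 on this component, plant 2 of Epi 8 lay at the opposite end at 51.5, and plant 1 of Epi 24 was farthest out on the second component, at 64.7. Plant 2 of Epi 24 was often the highest plant of its line in the results below. The counts of the longer lists are given without it, and those of several lists without other plants of the lines. Markers of root hairs, meristem, root cap, xylem, phloem and endodermis were all detected. Chlorophyll-binding and Rubisco genes of green tissue were also present, with summed levels of 875 to 1670 CPM in Epi 8 and 917 to 1387 CPM in Epi 24, and 0 of the 22 tested differed at the limits for an unadjusted p.

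The strongest call was CHX17 (AT4G23700, chr4:12342376-12346051, minus strand, TAIR10.1), a cation/H+ exchanger of the endomembrane system with a role in potassium and pH balance. CHX17 was at 47.8, 49.1 and 56.0 CPM in Epi 8, at 121, 109 and 88.9 CPM in Epi 24 and at 81.4, 74.7 and 70.9 CPM in WT. The groups did not overlap, and every WT plant lay between the lines. CHX17 was lower in Epi 8 by a log2FC of -1.06 (SE 0.14, FDR 0.0384). The 6 other CHX genes tested did not pass the limits, and the nearest were CHX16 with a log2FC of -0.38 (SE 0.16) and CHX18 with -0.49 (SE 0.34).

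AT5G38910 (chr5:15578749-15579733, plus strand) had the largest change of the 4. It encodes a cupin of the germin-like type, a family of stable extracellular proteins of the cell wall. Its level was 0.302, 0.357 and 0.748 CPM in Epi 8, 10.6, 7.45 and 5.65 CPM in Epi 24 and 4.37, 3.23 and 0.806 CPM in WT. The gene was near the detection floor in Epi 8 (3 counts are 0.150 to 0.154 CPM), variable in WT and high in all 3 Epi 24 plants, with a log2FC of -4.06 (SE 0.60, FDR 0.0417). The exons most like it lie nearby in AT5G38940, named after its values were seen, with 82.3% identity over 559 bases. AT5G38940 was at 7.66, 15.2 and 7.09 CPM in Epi 8 and at 6.61, 3.87 and 4.27 CPM in Epi 24, so that the neighbours differed in opposite directions. For AT5G38940 this was a log2FC of 1.02 (SE 0.42, FDR 0.397), which did not pass the FDR limit. The germin-like genes and cupins were mixed, with 18 of 33 lower in Epi 8, and GLP4, a germin-like protein, was at 32.5, 28.3 and 46.1 CPM in Epi 8 against 75.3, 91.4 and 57.6 CPM in Epi 24.

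AT2G03200 (chr2:966390-968048, minus strand), a predicted secreted aspartyl protease, was the most even of the 4 among plants. It was at 28.3, 28.4 and 26.9 CPM in Epi 8, at 48.8, 55.3 and 54.7 CPM in Epi 24 and at 38.0, 35.9 and 47.4 CPM in WT. It fell by 0.93 on the log2 scale in Epi 8 (SE 0.14, FDR 0.0417), again with WT between the lines. The search of its exons against TAIR10.1 gave no match elsewhere. The list of its family was chosen with earlier results known and holds AT2G03200 itself, so that it is no independent check. In it 44 of 47 aspartyl protease genes had a negative log2FC, with a median of -0.39 against -0.0022 over all genes. The summed levels overlapped, at 2991 to 3391 CPM in Epi 8 and 3367 to 5423 CPM in Epi 24. At an unadjusted p under 0.05 with the same fold limit, 10 were lower in Epi 8 and 0 higher (4 lower and 0 higher without plant 2 of Epi 24, and 16 lower without its plant 3). Across all genes these limits took 1081 (5.2%), of which 748 (3.6%) were lower and 333 (1.6%) higher in Epi 8. ASPG1, named for a protease that acts in guard cells, was at 54.2, 45.8 and 51.9 CPM in Epi 8, 77.0, 117 and 67.8 CPM in Epi 24 and 74.9 to 93.8 CPM in WT, so that Epi 8 lay below WT and Epi 24 overlapped it.

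**Figure D1:**
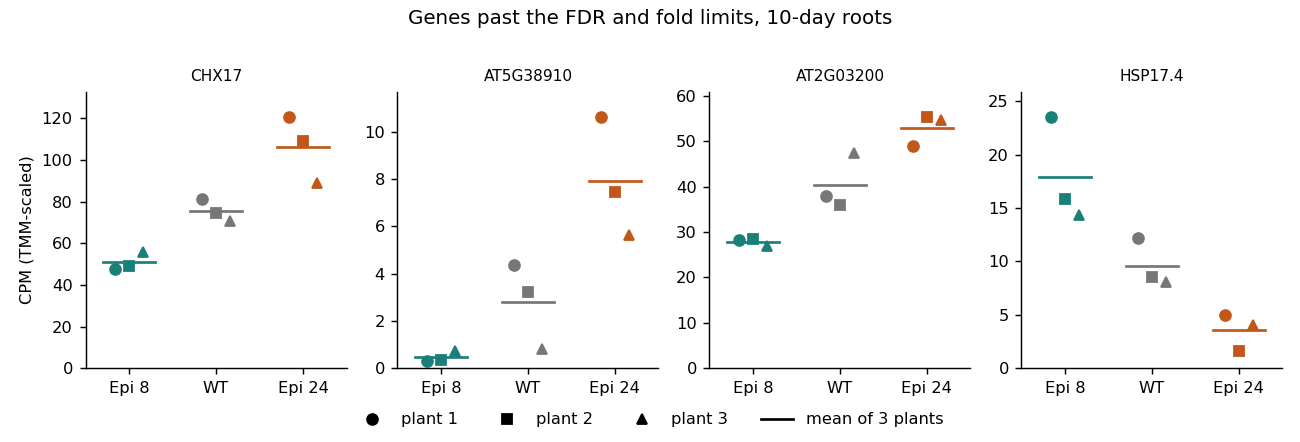
Level of the 4 genes past the FDR and fold limits in each 10-day root, in CPM after TMM scaling (y axis, from 0), for Epi 8, WT and Epi 24 (x axis). Symbols are plants 1 to 3 and bars the mean of 3 plants. CHX17, AT5G38910 and AT2G03200 were lower and HSP17.4 higher in every Epi 8 plant than in any Epi 24 plant, and the WT mean lay between the lines for all 4.

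The single gene that rose in Epi 8 was HSP17.4 (AT3G46230, chr3:16984118-16984867, minus strand), a cytosolic small heat shock protein that keeps unfolding proteins soluble. It was at 23.53, 15.8 and 14.4 CPM in Epi 8, at 5.01, 1.60 and 4.05 CPM in Epi 24 and at 12.2, 8.52 and 8.06 CPM in WT. All Epi 8 plants lay above all WT plants, and these above all Epi 24 plants. The log2FC was 2.33 (SE 0.35, FDR 0.0417). Without strand information, reads of HSP17.4 cannot be told apart from those of AT3G07365, an opposite-strand gene that covers 453 of its 750 bases and was itself at a mean of 0.813 CPM in Epi 8 and 0.0184 CPM in Epi 24. A second opposite-strand neighbour, AT3G46220, overlaps by 60 bases and had a log2FC of -0.04 (SE 0.13).

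The size of the 4 differences was steadier than their FDR. Over the 16 other settings and left-out plants the log2FC ran from -1.18 to -0.96 for CHX17, from -4.56 to -3.78 for AT5G38910, from -0.98 to -0.89 for AT2G03200 and from 1.98 to 2.66 for HSP17.4. Yet 0 genes passed the FDR limit without plant 1 or 2 of either line or plant 1 of WT, and the 1 gene called without plant 3 of Epi 8 was another, AT1G52820. Without plant 3 of Epi 24, 13 genes passed, CHX17 and AT5G38910 among them, and without plant 3 of WT, 3 passed.

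Heat shock factors bind the heat shock element, inverted repeats of the letters GAA. The 250 bases before the gene start are shown for the 3 small heat shock genes with a match among those that were higher in Epi 8, read from the RefSeq genome TAIR10.1 in the direction of the gene. Capitals mark matches to GAANNTTC or TTCNNGAA, which read the same on both strands and can overlap each other.
HSP17.4, chr3:16984868-16985117, minus strand: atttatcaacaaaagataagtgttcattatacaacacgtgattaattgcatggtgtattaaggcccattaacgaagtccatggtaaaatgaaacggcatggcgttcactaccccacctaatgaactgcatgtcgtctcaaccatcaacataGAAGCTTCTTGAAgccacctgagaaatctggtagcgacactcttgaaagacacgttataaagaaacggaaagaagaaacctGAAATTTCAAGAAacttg
HSP17.6A, chr5:3884839-3885088, minus strand: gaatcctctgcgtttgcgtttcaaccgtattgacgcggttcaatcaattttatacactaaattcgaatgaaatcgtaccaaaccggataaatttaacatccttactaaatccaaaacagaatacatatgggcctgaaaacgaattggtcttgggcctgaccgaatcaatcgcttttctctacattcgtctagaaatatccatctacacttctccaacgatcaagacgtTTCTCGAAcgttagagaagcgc
AT1G53540, chr1:19980049-19980298, plus strand: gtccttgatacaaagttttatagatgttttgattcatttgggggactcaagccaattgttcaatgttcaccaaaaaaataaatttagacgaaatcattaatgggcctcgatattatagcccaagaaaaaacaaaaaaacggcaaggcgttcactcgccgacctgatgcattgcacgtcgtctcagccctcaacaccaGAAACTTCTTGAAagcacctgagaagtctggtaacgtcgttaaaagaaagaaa
HSP17.4 had 4 matches in 2 overlapping pairs, starting at -99, -94, -18 and -13 from the gene start. AT1G53540 had 1 such pair, starting at -53 and -48. GAANNTTC was found in 3 of 13 small heat shock genes tested and in 9.33% of the windows of all genes, and TTCNNGAA in 5 of 13 and 7.62%. Among the 333 genes higher in Epi 8 at the unadjusted limits these shares were 8.71% and 9.01%. AT1G07400, also higher in Epi 8, had no match, while AT5G51440, AT1G52560 and AT5G37670 had a match and are not shown. A link between the element and the levels was not tested. The windows of HSP17.6A and AT1G53540 overlap the annotated neighbours AT5G12040 and AT1G53530, and that of HSP17.4 overlaps no other gene.

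Of these 13 small heat shock genes, 5 were higher in Epi 8 at the unadjusted limits and 0 lower, and the list median was 0.37 (4 higher and 0 lower without plant 2 of Epi 24, median 0.25). In 5 of the 13 all Epi 8 roots lay above all Epi 24 roots, against 8.47% of all genes. Against WT the list median was -0.10 for Epi 8 and -0.59 for Epi 24, so that over the list Epi 24 lay farther below WT. HSP17.6A, a cytosolic class II protein, was at 6.90, 5.81 and 2.30 CPM in Epi 8, at 0, 0 and 0.373 CPM in Epi 24 and at 2.16, 1.56 and 0.967 CPM in WT. The lines did not overlap, and 2 Epi 24 plants had no read of the gene. Its unadjusted p was 4.19e-05 (FDR 0.087), and its fitted log2FC of 5.27 depends on the treatment of these zeros.

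AT1G07400, a class I small heat shock protein, was at 7.81, 5.05 and 2.495 CPM in Epi 8 and at 1.20, 1.27 and 1.76 CPM in Epi 24 (log2FC 1.85, SE 0.47, unadjusted p 0.00132). AT1G53540, of the same class, was at 5.89, 3.42 and 6.19 CPM in Epi 8 and at 2.404, 1.49 and 1.65 CPM in Epi 24 (log2FC 1.48, SE 0.39, unadjusted p 0.00198). In both genes the lowest Epi 8 plant still exceeded the highest Epi 24 plant. Copies of this family are alike, with 87.9% identity over 513 bases between AT1G07400 and AT1G59860 as the closest pair. For 0 of the 92 genes searched did the best match elsewhere in the genome reach 98% identity over 100 bases or more. Only the match with the most identical bases was judged for each gene, so that shorter and closer matches were not counted.

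Larger chaperones had higher levels in Epi 8 than in Epi 24, but not than in WT. HSP70 was at 40.9, 41.8 and 26.2 CPM in Epi 8, at 22.4, 18.17 and 22.5 CPM in Epi 24 and at 50.8, 28.9 and 51.9 CPM in WT (log2FC 0.79, SE 0.22, unadjusted p 0.00327). HSP90.1, a client-maturing chaperone, was at 25.1, 20.6 and 14.8 CPM in Epi 8, at 12.3, 9.72 and 11.2 CPM in Epi 24 and at 26.7, 12.8 and 21.2 CPM in WT (log2FC 0.87, SE 0.25, unadjusted p 0.00404). Here Epi 24 was the line below WT. Of the 20 genes of the wider heat response, 4 were higher at the unadjusted limits, the others being Hsp70b (log2FC 0.69) and the immunophilin ROF2 (AT5G48570, log2FC 0.54), and 0 were lower. With plant 1 of Epi 24 or plant 2 of Epi 8 left out, 2 were higher. Among the heat shock factors HSFA1A (HSF1) had a log2FC of -0.14, HSFA1B (HSF3) of -0.23 and HSFA1D of 0.14, none past the limits.

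**Figure D2:**
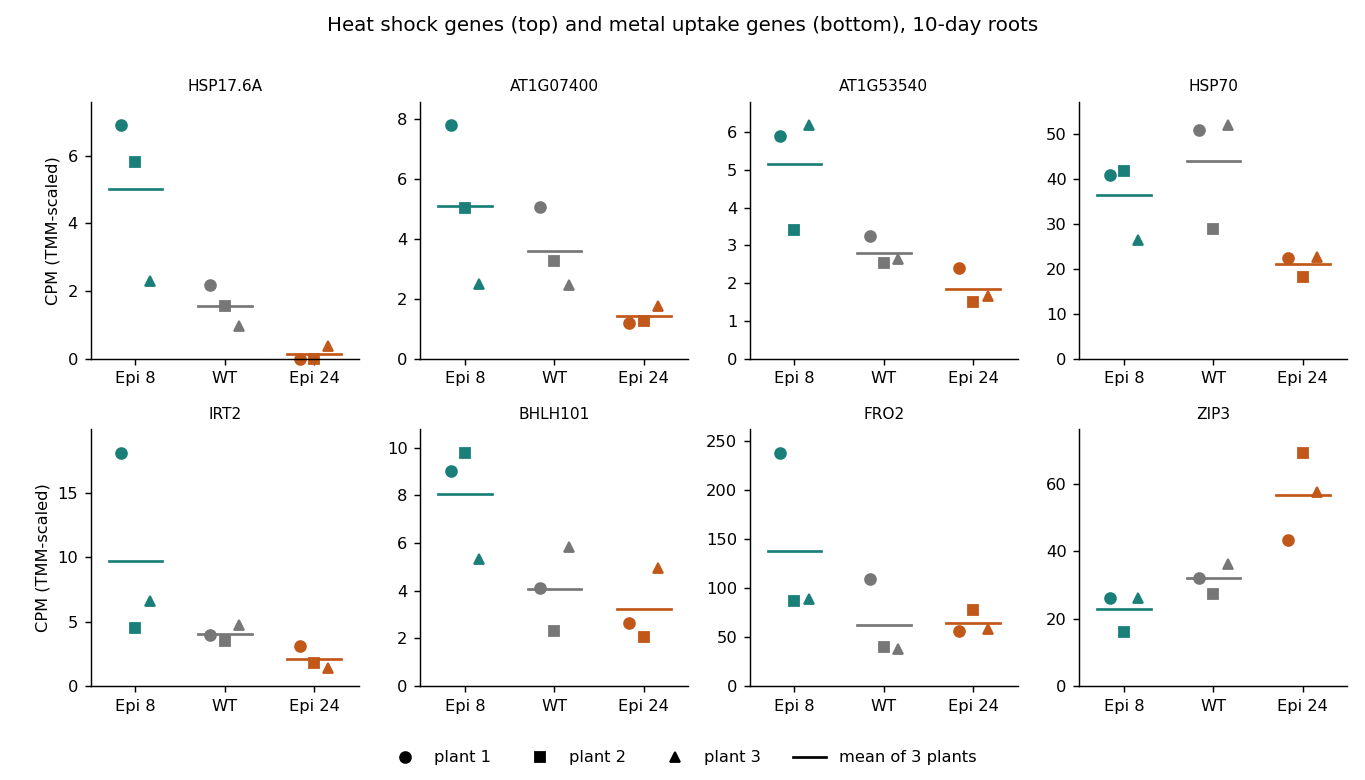
Level in each 10-day root, in CPM after TMM scaling (y axes, each from 0), of 4 heat shock genes (top) and 4 metal uptake genes (bottom) in Epi 8, WT and Epi 24. Symbols are plants 1 to 3 and bars the mean of 3 plants. The lines do not overlap in any of the 8 genes, Epi 24 lies lowest in HSP70, and FRO2 is high in plant 1 of Epi 8 (238 CPM) and of WT (109 CPM).

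Iron uptake also had more genes higher than lower in Epi 8. Roots reduce ferric iron at their surface with FRO2 and import it through IRT1 and its relative IRT2, under FIT and its partners of the bHLH family, BHLH101 among them. Of the 25 genes tested, 6 were higher in Epi 8 at the unadjusted limits and 0 lower, with a median log2FC of 0.43. IRT2 was at 18.1, 4.49 and 6.59 CPM in Epi 8, at 3.16, 1.82 and 1.44 CPM in Epi 24 and at 3.94, 3.53 and 4.73 CPM in WT (log2FC 2.18, SE 0.47, unadjusted p 0.000361). BHLH101 was at 9.02, 9.79 and 5.34 CPM in Epi 8, at 2.65, 2.04 and 4.96 CPM in Epi 24 and at 4.105, 2.32 and 5.85 CPM in WT (log2FC 1.32, SE 0.41, unadjusted p 0.00579). In both genes the lines did not overlap, though plant 3 of the lines nearly met in BHLH101.

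FRO2 was at 238, 86.7 and 88.9 CPM in Epi 8, at 56.8, 77.9 and 57.9 CPM in Epi 24 and at 109, 39.6 and 38.0 CPM in WT. IRT1 was at 349, 139 and 149 CPM in Epi 8, at 103, 156 and 88.1 CPM in Epi 24 and at 219, 82.6 and 68.0 CPM in WT. IRT1 was named after its values were seen. In both genes, plant 1 of Epi 8 and plant 1 of WT were the high plants of their groups. Without Epi 8 plant 1 the FRO2 log2FC went from 1.104 to 0.45 (unadjusted p 0.224), the list median from 0.43 to 0.15, and the genes at the unadjusted limits from 6 to 2. FIT itself, listed as FRU, had a log2FC of -0.16 (SE 0.20). HA2, the proton pump that acidifies the soil around the root, was on the other side, at 1295, 1098 and 1298 CPM in Epi 8 against 1452, 2107 and 1485 CPM in Epi 24 (log2FC -0.45, SE 0.17). ZIP3, a zinc transporter, was at 26.0, 16.2 and 26.2 CPM in Epi 8, 43.2, 69.2 and 57.4 CPM in Epi 24 and 32.1, 27.4 and 36.3 CPM in WT. ZIP3 had the smallest p of the genes that missed the FDR limit (log2FC -1.31, SE 0.21, FDR 0.0597).

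Genes that build the secondary wall had lower levels in Epi 8. All 19 tested genes for its cellulose and xylan had a negative log2FC (median -0.55), and 10 passed the unadjusted limits in that direction, with 0 in the other (6 and 0 without plant 2 of Epi 24, median -0.41). IRX3, also called CESA7, is 1 of the cellulose synthases of the secondary wall and was at 32.7, 24.9 and 23.7 CPM in Epi 8, at 37.0, 71.3 and 48.5 CPM in Epi 24 and at 39.6, 32.4 and 36.1 CPM in WT. The log2FC of IRX3 was -0.95 (SE 0.21, unadjusted p 0.000402). CESA4 was at 46.1, 38.9 and 31.5 CPM in Epi 8, at 50.1, 74.1 and 60.6 CPM in Epi 24 and at 57.2, 37.7 and 47.6 CPM in WT (log2FC -0.67, SE 0.19). In these genes the lines did not overlap, plant 2 of Epi 24 was highest, and WT lay across both. PARVUS, a glycosyltransferase that starts xylan chains, was at 12.2, 10.9 and 10.2 CPM in Epi 8 and at 17.5, 26.7 and 18.6 CPM in Epi 24 (log2FC -0.91, SE 0.21).

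The tracheary element regulating cis-element is a short sequence described upstream of genes of differentiating vessels. Of the 19 windows of 250 bases before these genes, searched on both strands, 2 held it, against 0.395% of the windows of all genes (82 of 20778). They are shown as the wall genes with a match, with the match in capitals.
CESA4, chr5:17714140-17714389, plus strand: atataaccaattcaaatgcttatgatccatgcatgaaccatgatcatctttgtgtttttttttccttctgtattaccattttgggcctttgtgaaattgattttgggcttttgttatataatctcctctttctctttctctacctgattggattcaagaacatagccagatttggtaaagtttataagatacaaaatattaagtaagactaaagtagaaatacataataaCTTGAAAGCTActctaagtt
FLA11, chr5:753658-753907, minus strand: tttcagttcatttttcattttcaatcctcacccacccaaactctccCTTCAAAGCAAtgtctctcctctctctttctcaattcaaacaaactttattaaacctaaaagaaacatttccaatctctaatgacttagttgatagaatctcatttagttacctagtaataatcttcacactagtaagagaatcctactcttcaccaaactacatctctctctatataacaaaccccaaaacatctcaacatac
The match starts at -20 in CESA4 and at -204 in FLA11, a fasciclin-like arabinogalactan protein of stems and vessels that had a log2FC of -0.55 (SE 0.18, unadjusted p 0.00863) and was named here for its match. The CESA4 window overlaps the neighbour AT5G44020 and the FLA11 window AT5G03180. Among the 748 genes lower in Epi 8 at the unadjusted limits the share with the element was 0.668%, and 0 of 16 laccases held it. Whether the element has a part in the levels was not tested.

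Laccases oxidise monolignols in the wall to lignin. The 16 tested had a median log2FC of -0.67 and a negative log2FC each, and 9 were lower and 0 higher at the unadjusted limits (3 and 0 without plant 2 of Epi 24, median -0.30). LAC13 was at 10.3, 6.88 and 15.6 CPM in Epi 8 and at 18.3, 26.4 and 22.9 CPM in Epi 24 (log2FC -1.04, SE 0.25). LAC11, which acts with LAC4 and LAC17 in vessels and fibres, was at 20.2, 29.6 and 21.3 CPM in Epi 8 and at 37.1, 52.8 and 32.4 CPM in Epi 24 (log2FC -0.78, SE 0.21). Of the 16 enzymes that make the monolignols, 1, PAL4, passed the unadjusted limits. This is 6.25%, near the 5.2% of all genes, and the list median was -0.06. PAL4 was at 32.4, 39.7 and 40.9 CPM in Epi 8, against 61.8, 53.1 and 62.5 CPM in Epi 24. Of 21 regulators of the secondary wall, 0 passed, which in a list this short is near the 5.2% of all genes. A negative log2FC was found in 15 of the 21 (median -0.18). Their summed levels were 149 to 191 CPM in Epi 8, 204 to 214 CPM in Epi 24 and 155 to 194 CPM in WT. MYB46 had a log2FC of -0.05 (SE 0.35) and VND7 of -0.53 (SE 0.63).

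The xylem markers share genes with the secondary wall and laccase lists, so that their sum is not a separate measure. The summed markers were at 470 to 597 CPM in Epi 8 and 605 to 870 CPM in Epi 24. The 6 of 12 markers that were lower at the unadjusted limits were all shared genes, CESA4, IRX3, IRX1, IRX9, IRX12 (LAC4) and LAC17. None of the markers outside those lists passed. Without plant 2 of Epi 24, 2 of the 12 were lower, and the marker median went from -0.45 to -0.32. The vessel proteases XCP1 and XCP2 had a log2FC of -0.31 (SE 0.16) and -0.23 (SE 0.16), and ACL5, a thermospermine synthase of differentiating vessels, of 0.0029 (SE 0.19). These 3 were named after their values were seen. Whether the number of vessels has a part in the difference was not tested.

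Genes of the endodermal barrier had lower levels in Epi 8 as well. Of 12 Casparian strip genes, 7 were lower and 0 higher at the unadjusted limits, with a median of -0.65 (4 and 0 without plant 2 of Epi 24, median -0.36). CASP5, a scaffold of the strip, was at 3.58, 5.05 and 4.89 CPM in Epi 8, at 9.57, 15.2 and 8.69 CPM in Epi 24 and at 7.94, 7.76 and 14.7 CPM in WT (log2FC -1.31, SE 0.31, unadjusted p 0.000736). GSO1, the receptor that surveys the closure of the strip, was at 23.48, 23.8 and 26.1 CPM in Epi 8, at 36.1, 58.2 and 39.6 CPM in Epi 24 and at 42.0, 28.9 and 47.2 CPM in WT (log2FC -0.87, SE 0.20). PER64, the peroxidase that polymerises lignin there, was at 64.4, 71.8 and 83.4 CPM in Epi 8, at 127, 172 and 91.7 CPM in Epi 24 and at 119, 80.5 and 115 CPM in WT (log2FC -0.83, SE 0.21). In all 3 genes Epi 8 lay below every WT plant, with the exception of PER64 in plant 3 of Epi 8 against plant 2 of WT.

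The transcription factors that set up the endodermis did not pass the limits. MYB36, the activator of the CASP genes, was at 15.3, 14.7 and 13.0 CPM in Epi 8 and at 12.9, 12.3 and 18.7 CPM in Epi 24 (log2FC -0.03, SE 0.20). SCR had a log2FC of 0.05 and SHR of 0.32 (SE 0.15). The summed endodermal markers, which share most of these genes, were 407 to 476 CPM in Epi 8, 533 to 840 CPM in Epi 24 and 468 to 741 CPM in WT, and their part in the difference was not tested. In suberin synthesis 17 of 18 genes had a negative log2FC (median -0.44) and 5 passed, all lower in Epi 8 (2 without plant 2 of Epi 24, median -0.34, and 9 without its plant 1). GPAT5, an acyltransferase of suberin, was at 13.6, 12.3 and 15.2 CPM in Epi 8 and at 19.7, 27.7 and 22.6 CPM in Epi 24 (log2FC -0.77, SE 0.23). CYP86A1, the hydroxylase that makes its long-chain monomers, was at 86.5, 103 and 83.7 CPM in Epi 8 and at 114, 142 and 153 CPM in Epi 24 (log2FC -0.58, SE 0.18).

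**Figure D3:**
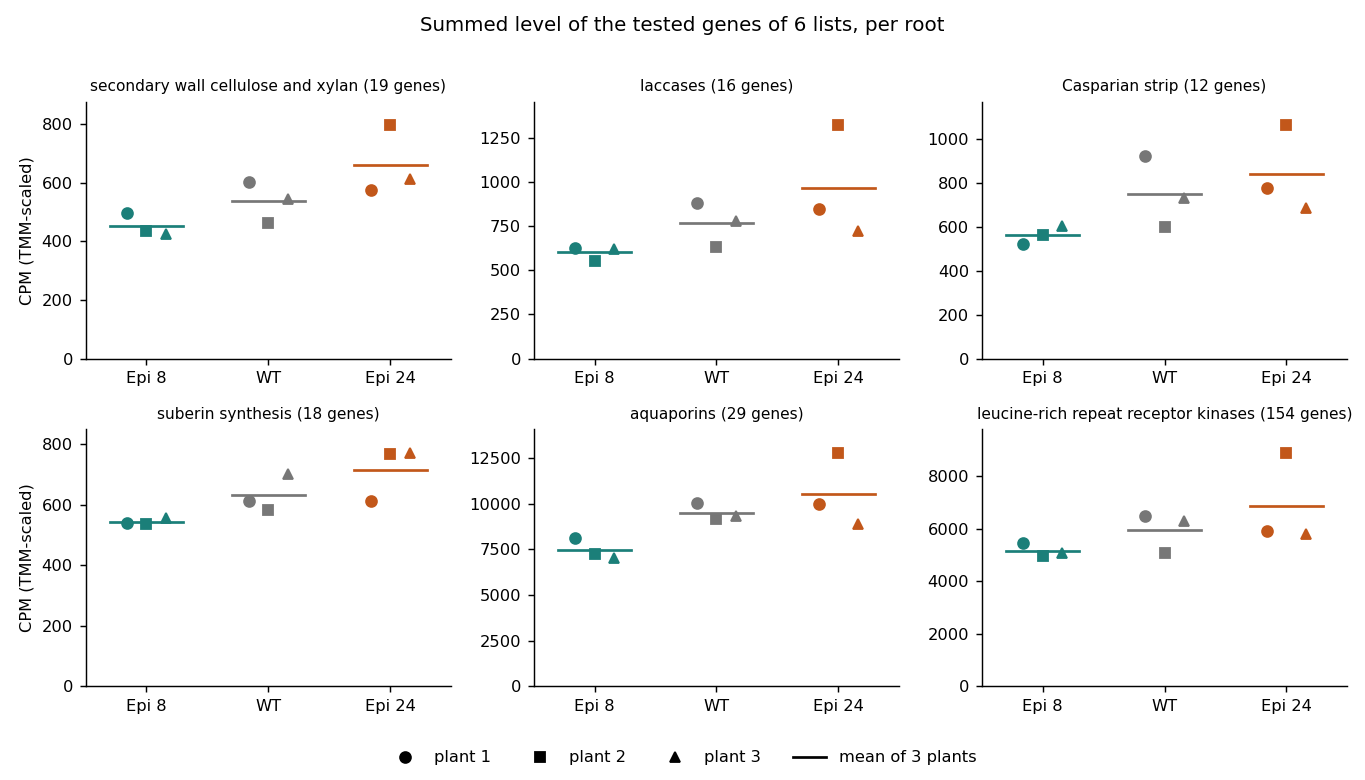
Summed level of the tested genes of 6 lists in each root, in CPM after TMM scaling (y axes, each from 0), for Epi 8, WT and Epi 24. Symbols are plants 1 to 3 and bars the mean of 3 plants. Epi 8 lies below Epi 24 without overlap in all 6, and plant 2 of Epi 24 is the highest root in 5 of them, with plant 3 above it in suberin synthesis.

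Class III peroxidases, a large family of wall enzymes, were lower in 12 and higher in 3 of 57 genes at the unadjusted limits (6 and 5 without plant 2 of Epi 24). AT5G15180 was at 23.58, 16.8 and 22.5 CPM in Epi 8, at 40.8, 58.4 and 39.2 CPM in Epi 24 and at 35.6, 32.1 and 27.7 CPM in WT (log2FC -1.14, SE 0.19, FDR 0.0597). The 3 higher in Epi 8, named because they were few, were AT5G64110, AT5G19890 and PRX52, and PRX52 had no read in any Epi 24 root and no more than 0.655 CPM in Epi 8. Expansins, which loosen growing walls, were lower in 4 and higher in 0 of 20 genes, but in 1 and 1 without plant 2 of Epi 24, where the median went from -0.22 to -0.10. EXPB3 was at 259, 211 and 265 CPM in Epi 8 against 283, 499 and 421 CPM in Epi 24. The xyloglucan endotransglucosylases were lower in 2 of 25 and higher in 1 (5 and 0 without plant 3 of Epi 24), and XTH24 was at 24.1, 28.0 and 20.9 CPM in Epi 8 against 55.8, 44.7 and 28.0 CPM in Epi 24. The shares over all genes at these limits were 3.6% lower and 1.6% higher.

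Aquaporins, the water channels of the plasma membrane (PIP) and the tonoplast (TIP), were lower in 7 and higher in 0 of 29 genes at the unadjusted limits. A total of 25 had a negative log2FC (median -0.37). Without plant 2 of Epi 24, 3 were lower with a median of -0.20, while 11 and 13 were lower without its plants 1 and 3 and 12 without plant 1 of Epi 8. In 14 of the 29 all Epi 8 roots lay below all Epi 24 roots, against 8.51% of all genes. TIP2;3 was at 113, 80.0 and 77.7 CPM in Epi 8, at 171, 250 and 144 CPM in Epi 24 and at 120, 146 and 145 CPM in WT (log2FC -1.06, SE 0.20, unadjusted p 7.83e-05). TIP2;2 was at 379, 218 and 337 CPM in Epi 8, at 588, 850 and 524 CPM in Epi 24 and at 559, 455 and 416 CPM in WT (log2FC -1.07, SE 0.21). Every WT root lay above every Epi 8 root in these genes, which transport ammonium as well as water. PIP1B (PIP1;2), a channel for water and CO2, was at 802, 808 and 789 CPM in Epi 8, at 1162, 1429 and 1016 CPM in Epi 24 and at 1068, 1080 and 1144 CPM in WT (log2FC -0.59, SE 0.13). The spread among the 3 Epi 8 plants was small beside the gap to the other roots. PIP2B shares 95.3% identity over 301 bases with its tandem neighbour RD28, and its counts are uncertain to that extent.

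NRT1.1 is the dual-affinity nitrate transporter and sensor. It was at 113, 126 and 205 CPM in Epi 8, at 326, 396 and 306 CPM in Epi 24 and at 278, 181 and 136 CPM in WT (log2FC -1.21, SE 0.25, unadjusted p 0.000204, FDR 0.192). NIA2, a nitrate reductase, was at 164, 171 and 236 CPM in Epi 8 and at 236, 309 and 269 CPM in Epi 24 (log2FC -0.51, SE 0.16), where the highest Epi 8 plant met the lowest Epi 24 plant at the rounding used here. In the nitrate list 4 of 19 were lower and 1 higher at the unadjusted limits, the latter being NRT2.6 at no more than 1.06 CPM. Without plant 2 of Epi 24 these were 2 and 2, without plant 1 of Epi 8 they were 2 and 1, and without its plant 2 they were 1 and 1. The potassium and sodium list had 2 lower of 17 and the phosphate starvation list 2 lower of 19, with 0 higher in both, and over the left-out plants of the lines 0 to 2 and 1 to 5 were lower. SWEET11, a sucrose exporter of the phloem, was at 8.82, 4.38 and 6.94 CPM in Epi 8, at 21.0, 18.3 and 18.18 CPM in Epi 24 and at 13.2, 17.0 and 10.7 CPM in WT (log2FC -1.51, SE 0.25, FDR 0.0597). PIN7, an auxin exporter of the vascular cylinder, was at 50.2, 47.5 and 55.6 CPM in Epi 8 and at 66.3, 91.4 and 78.3 CPM in Epi 24 (log2FC -0.62, SE 0.17). In the auxin list (median -0.06), 3 of 37 genes were lower and 0 higher (6 and 1 without plant 1 of Epi 24, 5 and 0 without its plant 3). Over all genes 3.6% were lower and 1.6% higher. The auxin, potassium and sodium, and phosphate lists are too short to set their counts apart from these shares.

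**Figure D4:**
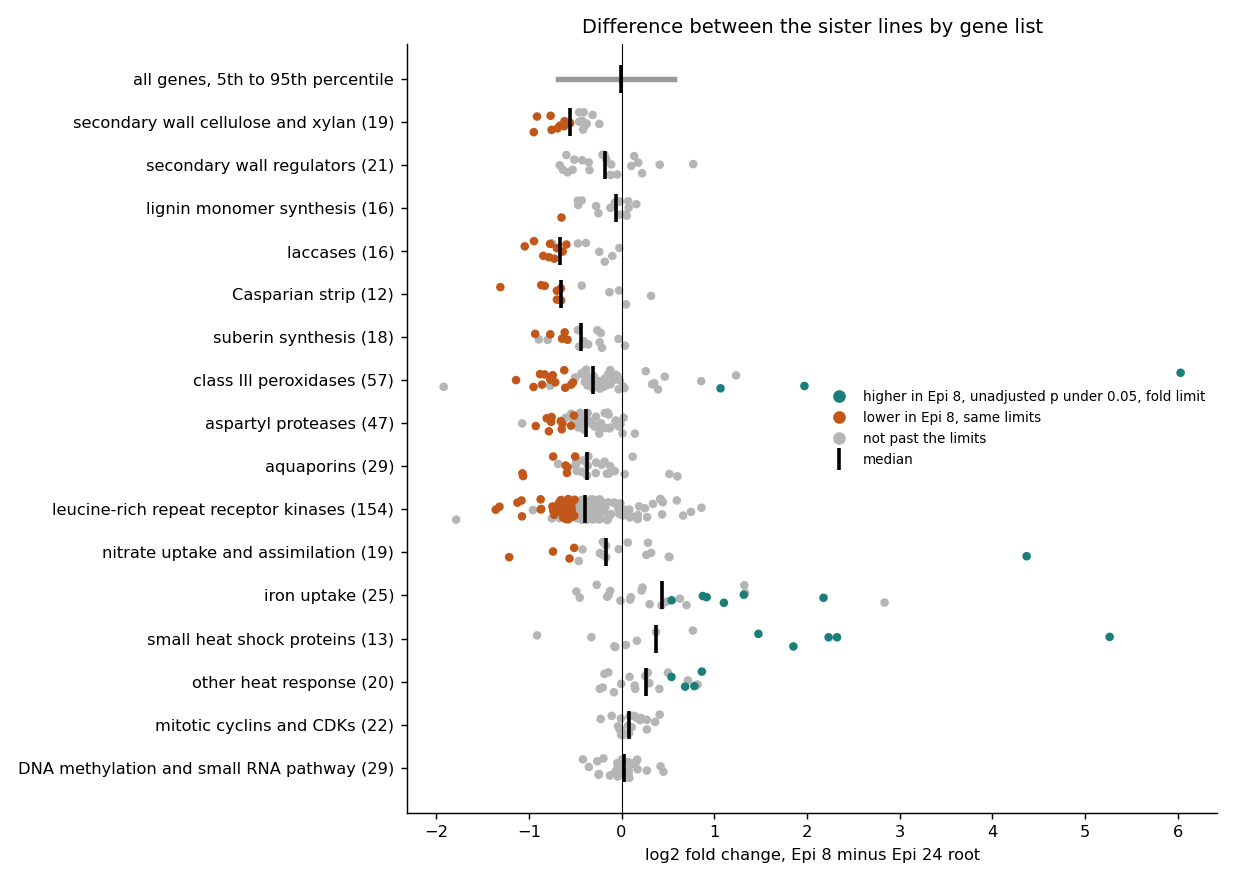
log2FC of Epi 8 minus Epi 24 root (x axis) of each tested gene of 16 lists (rows, number of genes in brackets), with the median of each list as a vertical bar and the 5th to 95th percentile of all genes (-0.69 to 0.57) at the top. Coloured points pass the unadjusted p and fold limits. The medians run from -0.67 for laccases to 0.43 for iron uptake.

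The leucine-rich repeat receptor kinases were the largest list, with 38 of 154 lower and 0 higher at the unadjusted limits, 135 with a negative log2FC and a median of -0.40. Without plant 2 of Epi 24 these were 13 lower and 2 higher with a median of -0.19. The number of lower genes was 60 and 65 without plants 1 and 3 of Epi 24 and 25 without plant 2 of Epi 8. Like the other lists, this list was chosen with earlier results known, so that its counts are no independent check. AT5G59680 was at 18.9 to 27.9 CPM in the 3 Epi 8 roots, at 51.0, 71.4 and 32.5 CPM in Epi 24 and at 24.7, 22.4 and 22.5 CPM in WT (log2FC -1.08, SE 0.23). AT5G49780 was at 4.33, 4.59 and 4.54 CPM in Epi 8, at 10.6, 8.67 and 9.12 CPM in Epi 24 and at 5.29, 6.20 and 4.24 CPM in WT (log2FC -1.07, SE 0.25). In both, Epi 24 was the line above WT, while Epi 8 and WT lay together. Over the whole list the median log2FC against WT was -0.20 for Epi 8 and 0.16 for Epi 24. The cysteine-rich kinases had 1 of 18 lower and 0 higher (0 to 3 lower over the left-out plants of the lines). The genes of pattern-triggered immunity had 1 of 20 lower, PEPR2 (0 to 5 over the left-out plants of the lines), and their median of -0.32 turned to 0.05 without plant 2 of Epi 24. With 1 lower gene each, the immunity and cysteine-rich kinase lists were near the share over all genes, 3.6%.

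In 2 defense genes Epi 24 stood above both WT and Epi 8. WRKY70, a factor of the salicylic acid response, was at no more than 5.14 CPM in Epi 8, at 11.9, 8.01 and 6.03 CPM in Epi 24 and at 4.48, 4.08 and 5.59 CPM in WT (log2FC -1.11, SE 0.33, unadjusted p 0.00458). CYP81F2, which makes indole glucosinolates for defense, was at 34.8, 32.3 and 25.2 CPM in Epi 8, at 49.2, 104 and 39.8 CPM in Epi 24 and at 28.7, 18.4 and 22.7 CPM in WT (log2FC -1.06, SE 0.28). Every Epi 8 and WT plant lay below every Epi 24 plant in both genes. The salicylic acid list had 5 of 16 lower (1 without plant 2 of Epi 24), the glucosinolate list 3 of 21 (1), the WRKY list 2 of 60, the jasmonate list 1 of 25 and the abscisic acid list 2 of 20, with 0 higher in each. Over the left-out plants of the lines the lower genes numbered 1 to 5 in the first 3 of these lists, 0 to 2 in the jasmonate list and 0 to 4 in the abscisic acid list, so that these short counts turned on single plants. Of all genes 3.6% were lower at these limits, and the WRKY (3.33%) and jasmonate (4%) lists were near that share. LTI78, a drought and cold gene, was at 25.6, 22.4 and 33.6 CPM in Epi 8 and at 75.7, 133 and 45.3 CPM in Epi 24, but WT spread from 38.1 to 345 CPM.

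Lists of growth, chromatin and organelle genes had no member past the unadjusted limits, against 5.2% of all genes. In lists this short, 0 is near that share. Of 22 mitotic cyclins and kinases 0 passed the unadjusted limits (median 0.08), and the same held for 0 of 9 type-A response regulators of cytokinin signalling, 0 of 29 genes of DNA methylation and small RNAs (median 0.02) and 0 of 17 genes of MSH1 and organelle stress (median 0.02). Within the methylation list DMS3 had the smallest p, with 14.1, 14.5 and 15.4 CPM in Epi 8 and 8.11, 8.39 and 15.6 CPM in Epi 24 (log2FC 0.45, SE 0.23). RECA1, a plastid recombinase, was at 26.6, 29.9 and 28.7 CPM in Epi 8 and at 22.5, 20.0 and 22.0 CPM in Epi 24 (log2FC 0.40, SE 0.16). Its lines did not overlap, but the difference stayed under the fold limit.

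Outside the lists, some of the genes higher in Epi 8 with the smallest p had modest and even differences. Others, given after them, had larger and less even ones. RSR4 (PDX1.3), an enzyme of vitamin B6 synthesis, was at 103, 106 and 93.0 CPM in Epi 8, at 59.6, 75.1 and 65.2 CPM in Epi 24 and at 74.7, 75.4 and 78.4 CPM in WT (log2FC 0.59, SE 0.13, unadjusted p 0.000297). AT3G04230, a ribosomal protein S5 domain protein, was at 63.1, 72.2 and 71.2 CPM in Epi 8 and at 44.8, 42.1 and 46.7 CPM in Epi 24 (log2FC 0.63, SE 0.13), and PRPL35, a ribosomal L35 protein, had a log2FC of 0.70 (SE 0.16). AT3G53650, a histone, was at 18.7, 23.1 and 25.7 CPM in Epi 8 and at 11.5, 13.5 and 13.6 CPM in Epi 24 (log2FC 0.81, SE 0.18). In these genes the WT roots lay between or beside the lines.

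AT5G60760, a P-loop nucleotide-binding protein, was at 22.2, 33.3 and 17.61 CPM in Epi 8, at 12.9, 11.4 and 12.3 CPM in Epi 24 and at 11.4, 10.2 and 11.8 CPM in WT (log2FC 1.00, SE 0.21), so that Epi 8 stood above WT. AT3G47380, an inhibitor of invertase or pectin methylesterase, was at 8.72, 15.5 and 10.53 CPM in Epi 8 and at 2.104, 6.41 and 3.09 CPM in Epi 24 (log2FC 1.59, SE 0.36). AT3G07720, a kelch repeat protein, was at 153, 99.6 and 80.4 CPM in Epi 8 and at 53.3, 50.9 and 59.7 CPM in Epi 24 (log2FC 1.02, SE 0.23). Of those lower in Epi 8, AT1G14160, of the UPF0497 family that holds the CASP proteins, was at 23.3, 22.3 and 22.0 CPM in Epi 8, at 33.4, 39.2 and 41.3 CPM in Epi 24 and at 29.2, 24.3 and 30.1 CPM in WT (log2FC -0.75, SE 0.14). AT5G56980, a cotton fiber protein by its annotation, was at 43.3, 39.7 and 44.6 CPM in Epi 8 and at 82.2, 95.6 and 62.3 CPM in Epi 24 (log2FC -0.91, SE 0.15, FDR 0.0675).

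Over the 748 genes lower at the unadjusted limits, plant 2 of Epi 24 was the highest plant of its line in 71.9%, against 36.0% of all genes, and plant 2 of Epi 8 the lowest of its line in 54.1%, against 37.2%. Without plant 2 of Epi 24, 894 genes passed, 477 lower and 417 higher, and 525 of them were among the 1081. The genes were spread over the 5 chromosomes, from 4.71% of those tested on chromosome 3 to 6.05% on chromosome 2.

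The same contrast was made in floral stems of other plants, 6 weeks old, to see how far the line difference is shared. Organ and age cannot be told apart here, and a difference between organs below is also one between ages. Of the 1081 genes, 809 were also tested in stem, 494 of them (61.1%) with the same sign, against 56.0% of the 18397 genes tested in both organs. At the unadjusted limits 147 of the 809 (18.17%) passed in stem, against 14.4%, and 112 of these had the same sign. Over all genes tested in both organs this was 1688 of the 2647 that passed in stem. CESA4 and IRX3 were among the 112. CESA4 had a log2FC of -1.94 in stem (SE 0.63, unadjusted p 0.0118) and -0.67 in root, and IRX3 of -1.86 (SE 0.59) and -0.95. AT2G03200 had -1.44 in stem (SE 0.46, unadjusted p 0.0115), while CHX17, AT5G38910 and HSP17.6A did not have enough counts in stem to be tested.

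The test of the difference between organs called 0 of 22078 genes at the FDR and fold limits (edgeR quasi-likelihood, 2562 or 11.6% at the unadjusted limits, and 215 by DESeq2). LHY, a morning factor of the circadian clock, came closest. It was at 7.10, 7.39 and 9.28 CPM in Epi 8 roots and at 14.1, 8.45 and 12.4 CPM in Epi 24 roots, with a log2FC of -0.56 (SE 0.23) in root and 1.44 (SE 0.21) in stem (interaction FDR 0.0762). HSP17.4 had a log2FC of -1.84 in stem with an SE of 1.40, and its difference between organs had an unadjusted p of 0.014 (FDR 0.32). The clock list as a whole had 3 of 22 lower and 0 higher in root, against 3.6% and 1.6% of all genes. The 3 were LHY, PRR9 and AT3G12320. No gene of the list was lower at these limits without plant 1 of Epi 24 or without plant 1 or 2 of Epi 8, and 1 was lower without plant 3 of Epi 24.

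**Figure D5:**
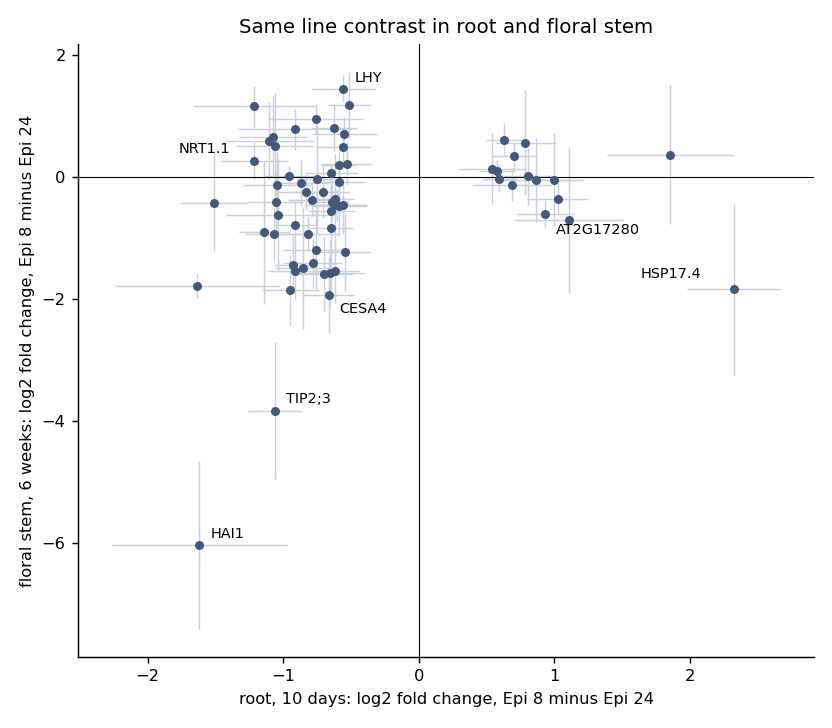
log2FC of Epi 8 minus Epi 24 in 10-day root (x axis) and in 6-week floral stem (y axis) for 67 named genes past the unadjusted limits in root, tested in both organs and with a mean of at least 1 CPM over the 6 roots. Bars are 1 SE. CESA4 and TIP2;3 are lower in Epi 8 in both organs, and LHY is lower in root and higher in stem.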

How the data were processed

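RNA was sequenced from individual plants with an unstranded TruSeq kit. The authors trimmed reads with TrimGalore, aligned them with STAR and counted uniquely mapped reads per gene with QoRTs, and deposited 1 table of raw counts per library. The submitters' processing notes name STAR 2.7.3a and edgeR 3.26.8. The strand setting of the counting was not given in the sources used here.

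Rows for reads outside genes (3.93 to 6.17% of root reads) or in several genes (0.802 to 0.987%) were left out of library sizes. Genes were filtered with filterByExpr, scaled by TMM and fitted with edgeR 4.0.16 (glmQLFit and glmQLFTest, limma 3.58.1, R 4.3.3) over the 9 roots with 1 term per group. The contrast Epi 8 minus Epi 24 was called at a Benjamini-Hochberg FDR under 0.05 and an absolute log2FC of at least 0.5, and unadjusted limits used p under 0.05 with the same fold. SE was log2FC divided by the square root of F. The organ difference was fitted over 18 root and stem libraries. The fit was tested on simulated data. Total counts were 18524351 to 20041205 per root, where 3 counts, the detection floor for counting error only, are 0.150 to 0.162 CPM. P-values measure the spread between plants of 1 family per line.

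Gene lists and members were chosen with earlier results of these data known, so that the counts of a list are no independent check. Genes named were those past the FDR limit, the 12 with the smallest p in each direction among genes past the unadjusted limits without overlap and with a mean of at least 1 CPM, and up to 4 per list with the smallest p. Others, such as AT5G38940, IRT1, FIT, the heat shock factors, FLA11, MYB36, SHR, XCP1 and NRT2.6, were named after their values were seen. Gene names and sequences came from RefSeq TAIR10.1 (32548 of 33977 gene IDs matched). Exons were searched with blastn 2.17.0+, and 6 motifs on both strands of the 250 bases before each gene. Python 3.11.15, pandas 2.3.3, numpy 2.4.6 and matplotlib 3.10.9 were used. Alternatives were DESeq2 1.42.0, its size factors, other filters, edgeR's likelihood ratio test, a replicate block, no fold limit, the 6 libraries alone and leaving out each plant.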

Additional observations from a re-analysis of the deposited data

How the results depend on the processing

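The 4 calls at the FDR and fold limits became 57 with no filter on low counts, 133 with edgeR's likelihood ratio test, 146 with DESeq2 (8 higher and 49 lower, 37 and 96, 27 and 119), and 1 without the WT libraries. They ran from 0 to 13 over the left-out plants. The genes at the unadjusted limits numbered 1081, with 826 to 2026 over left-out plants and 2369 with no fold limit. Calls of a difference between organs went from 0 to 1 without WT, to 215 with DESeq2 and from 0 to 5 over left-out plants. Plants of the same number did not deviate together (correlations -0.016, -0.003 and -0.007), and with the replicate block 0 genes were called and 1015 passed the unadjusted limits. Of the list medians over 0.1 in size, 3 crossed 0 over left-out plants, and so did 7 smaller ones (green shoot, phloem and meristem markers, type-A regulators, glucosinolate, DNA methylation and germin-like genes). That of non-hair epidermis markers (0.14) ran from -0.026 to 0.27, with -0.023 without plant 3 of Epi 24, and that of root cap markers (0.19) from -0.036 to 0.36, with -0.00077 without plant 3 of Epi 8. That of pattern-triggered immunity (-0.32) ran from -0.42 to 0.051, the last without plant 2 of Epi 24. None of the 145 genes taken by the naming rule changed sign in the 16 settings: of 2314 comparisons 2160 kept their side of the FDR and fold limits, 119 moved past them and 35 fell short. Genes named outside the rule were not run. The causes were not tested. Differences in genes near the floor of 3 counts, such as PRX52 and NRT2.6, were limited by depth.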
